A study of Mus musculus with 7 samples.

Results

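Vascular endothelial growth factors (VEGFs) and their receptors were followed through 9 mouse genes: the ligand genes Vegfa, Vegfb, Vegfc and Pgf, the receptor tyrosine kinase genes Flt1, Kdr and Flt4, and the neuropilin genes Nrp1 and Nrp2. They were taken by name. All 9 are among the 50600 entries of the bulk table, and 8 are among the 15536 genes of the single-cell table, where Flt4 was not analysed. VEGF ligands bind as dimers to the receptor tyrosine kinases, which are best known from the endothelial cells that line vessels, and kinase activation leads to signalling through phospholipase C gamma, the ERK kinases, PI3 kinase and Src. Neuropilins lack a kinase and act as co-receptors for VEGFs and for class 3 semaphorins. In the adult hippocampus VEGF-A is known as a vascular factor that also bears on neurogenesis.

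Neural stem and progenitor cells (NSPCs) of the dentate gyrus (DG), the part of the hippocampus where granule neurons are added in adult life, were grown from C57BL/6J mice aged 6 to 8 weeks as adherent primary cultures at passages 6 to 15, in serum-free medium with 20 ng/ml each of epidermal growth factor and fibroblast growth factor 2. Bulk RNA sequencing covered 4 NSPC cultures, females F1 and F2 and males M1 and M2, and the whole DG of 2 untreated C57BL/6J mice aged 7 to 9 weeks, female F1 and male M2. A single-cell library pooled 3 NSPC cultures, 2 female and 1 male, from mice aged 6 to 9 weeks, and the labels do not tie its cells to a culture. Culture libraries were made with a SMART-Seq HT kit and whole DG libraries with a NEBNext Ultra II Directional kit, so kit and group cannot be told apart, and the RNA integrity number was 10 in cultures and over 8 in whole DG. Library totals were 9917697 to 11747408 counts in cultures and 16676618 and 17351636 counts in whole DG. Of 13 neural stem and progenitor markers, 10 were higher in cultures and 3 lower. Among the higher was the intermediate filament gene Nes, at 1214 CPM (counts per 1000000) in cultures and 9.72 CPM in whole DG. The cell cycle genes Mki67, Pcna, Top2a, Ccnd1 and Ccnd2 of that list were also higher. The 3 lower were Sox2 (6.1 CPM in cultures, 36.3 CPM in whole DG), Hopx (7.63 and 64.6 CPM) and Hes5 (1.36 and 8.83 CPM). All 13 neuronal and all 11 microglial markers were lower in cultures, and of 10 oligodendrocyte lineage markers 6 were lower there and 2 higher. Of all genes tested, 41.7% were lower and 35.6% higher in cultures.

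The stretches before the start sites of 4 members are shown, since Flt1, Kdr and Nrp2 had the largest falls of the family in cultures and Vegfa had the smallest difference of those that passed the test. Each is the 250 bases before the RefSeq start on GRCm38.p6, given 5′ to 3′ on the gene's strand, with motif matches in capitals.
Vegfa, chr17:46032378-46032627, minus strand: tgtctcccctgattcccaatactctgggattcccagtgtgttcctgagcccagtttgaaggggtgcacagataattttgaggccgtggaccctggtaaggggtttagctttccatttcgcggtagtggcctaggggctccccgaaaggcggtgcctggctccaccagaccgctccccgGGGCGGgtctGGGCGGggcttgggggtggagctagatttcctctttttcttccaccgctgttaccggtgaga
Flt1, chr5:147726012-147726261, minus strand: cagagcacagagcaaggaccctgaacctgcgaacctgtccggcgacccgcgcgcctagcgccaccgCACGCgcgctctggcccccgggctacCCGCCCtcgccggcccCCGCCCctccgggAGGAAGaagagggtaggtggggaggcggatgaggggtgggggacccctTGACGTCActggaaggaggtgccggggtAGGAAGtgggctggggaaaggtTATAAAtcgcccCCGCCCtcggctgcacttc
Kdr, chr5:75978456-75978705, minus strand: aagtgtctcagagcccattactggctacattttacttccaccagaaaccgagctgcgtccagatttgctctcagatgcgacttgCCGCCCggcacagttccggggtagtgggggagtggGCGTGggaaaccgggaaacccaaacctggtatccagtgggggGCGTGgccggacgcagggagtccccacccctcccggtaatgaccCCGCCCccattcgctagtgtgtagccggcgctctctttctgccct
Nrp2, chr1:62703067-62703316, plus strand: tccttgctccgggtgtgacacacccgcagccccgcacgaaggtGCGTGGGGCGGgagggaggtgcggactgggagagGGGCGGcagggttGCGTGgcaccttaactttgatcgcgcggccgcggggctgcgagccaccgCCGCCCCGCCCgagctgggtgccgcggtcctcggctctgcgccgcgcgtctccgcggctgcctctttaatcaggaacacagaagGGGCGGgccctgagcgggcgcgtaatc
Capitals mark matches on either strand to the GC box GGGCGG, the Ets core AGGAAG, the cAMP response element TGACGTCA, the hypoxia response cores ACGTG and GCGTG, and the TATA box TATAAA. Matches to different motifs overlapped 0 times, although a hypoxia core and a GC box of Nrp2 abut. Among all 32851 such stretches in the table, 32.7% held the GC box, 29.5% the Ets core, 1.5% the cAMP element, 38.6% a hypoxia core and 12.4% the TATA letters. Each of the 9 members held at least 1 GC box. The Flt1 stretch held all 5 kinds, with Ets cores at 129 and 53 bases, the cAMP element at 81 bases and the TATA letters at 31 bases before the start, counted to the leftmost base of each match. It was the only member stretch with the cAMP element or the TATA letters. The Kdr stretch held hypoxia cores at 131 and 89 bases before the start, and the Vegfa, Vegfc and Flt4 stretches held none. Bases outside these stretches of 250 bases were not searched, so a missing match says nothing about sites farther from the start.

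NSPC cultures were compared with the whole DG, the tissue that such cells are grown from. In cultures 7 of the 9 members were lower and 0 were higher: the ligands Vegfa and Vegfb, all 3 kinases and both neuropilins fell, while Vegfc and Pgf did not pass the test. Over all 18088 genes tested, 77.3% passed at an edgeR adjusted p of 0.05, 41.7% lower and 35.6% higher in cultures. The median log2 difference was -2.19 over the 9 members and -0.13 over all genes tested. With other scaling factors the median of all genes moved to -0.23 (DESeq2's size factors) or 0.05 (upper quartile), and the same 7 members were called. In a test for a fold above 2, 6 members were lower in cultures, Vegfb and Flt4 among them, against 31.9% of all genes tested. With length and GC trends removed, 6 members were called lower at any fold. Flt4 was then not called, and the log2 difference of Vegfb was -0.89. The 4 cultures and the 2 whole DG libraries did not overlap for 7 of 9 members, against 83.6% of all genes tested, so separation alone did not set the family apart. Bulk counts cannot tell fewer cells of a type from less RNA per cell.

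**Figure D1:**
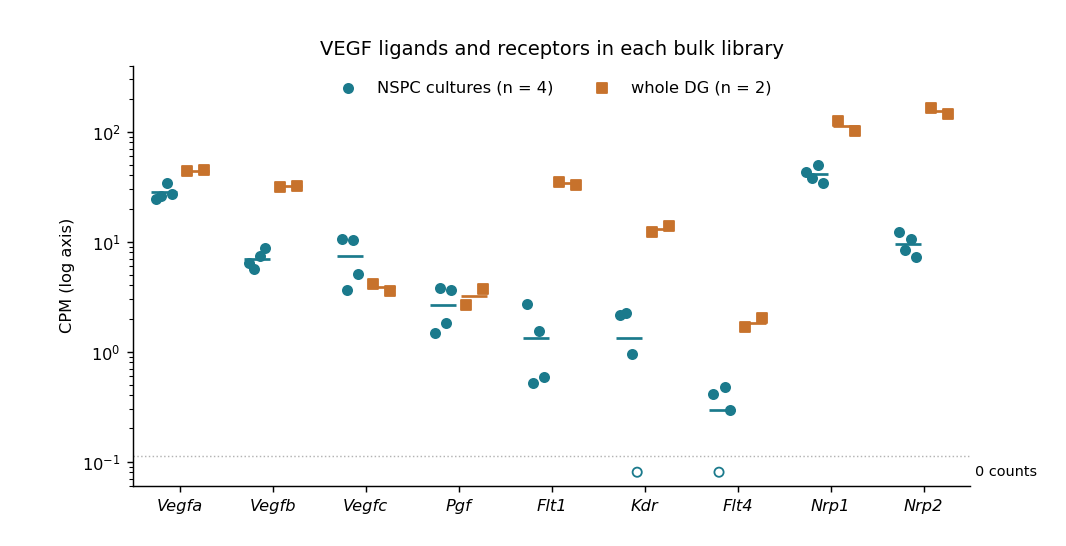
CPM of each member in each bulk library on a log axis, with NSPC cultures as circles (n = 4) left of whole DG as squares (n = 2), horizontal lines for means, and open symbols under the dotted line for libraries with 0 counts. The groups overlap for Vegfc and Pgf and lie apart for the other members, farthest for Flt1 and Nrp2.

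Among the ligands, Vegfa encodes VEGF-A, the main mitogen of endothelial cells, and lies on chromosome 17 from 46016993 to 46032369 (GRCm38, minus strand). It was at 24.6, 25.9, 34.3 and 27.2 CPM in cultures F1, F2, M1 and M2, against 43.6 and 45.2 CPM in whole DG F1 and M2. The highest culture, M1, stayed below both whole DG libraries. The log2 difference was -0.67 (SE 0.17, edgeR adjusted p = 0.00672), or 0.631 of the whole DG level. The call was lost without whole DG M2 (edgeR adjusted p = 0.0549), and a fold above 2 was not reached (edgeR adjusted p = 1).

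Vegfb encodes VEGF-B, a ligand of the receptor that Flt1 encodes and not of the one that Kdr encodes, and lies on chromosome 19 from 6982473 to 6987651. It was at 6.36, 5.63, 7.44 and 8.67 CPM in cultures F1, F2, M1 and M2, against 31.7 and 32.3 CPM in whole DG F1 and M2. Every culture lay far below the tissue, where the libraries were nearly equal. This was a log2 difference of -2.19 with an SE of 0.21 (edgeR adjusted p = 2.4e-05). Vegfb has the shortest exon sequence of the family, 1605 bases, and the highest GC content, 62.6%. When trends of the differences with gene length and GC content were removed, its difference was -0.89 (edgeR adjusted p = 0.00461), still called.

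Vegfc encodes VEGF-C, the lymphatic ligand of the receptor that Flt4 encodes, and lies on chromosome 8 from 54077606 to 54187096. It was at 10.6, 3.64, 10.4 and 5.07 CPM in cultures F1, F2, M1 and M2, against 4.12 and 3.58 CPM in whole DG F1 and M2. Cultures F1 and M1 were well above the tissue and F2 lay between the whole DG libraries, so the groups overlapped. The log2 difference was 0.94 (SE 0.47, edgeR adjusted p = 0.0992). It passed without culture F2, at 1.18 (edgeR adjusted p = 0.0204). Pgf encodes placental growth factor, another ligand of the Flt1 product, and lies on chromosome 12 from 85166635 to 85177790. It was at 1.49, 3.81, 1.81 and 3.61 CPM in cultures F1, F2, M1 and M2, against 2.64 and 3.70 CPM in whole DG F1 and M2. Culture F2 was above both tissue libraries, culture M2 lay between them, and cultures F1 and M1 were below both. Cultures F1 and M1, the highest for Vegfc, were thus the lowest for Pgf. For Pgf the log2 difference was -0.25 (SE 0.46, edgeR adjusted p = 0.634). Vegfd, the lymphatic ligand left out of the 9, had 6 counts in the 4 cultures together, against 68 counts in whole DG (log2 difference -3.88, edgeR adjusted p = 0.00131).

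The kinases were scarce in every culture. Flt1 encodes VEGF receptor 1, which binds VEGF-A tightly with weak kinase output, and lies on chromosome 5 from 147561604 to 147726011. It was at 2.72, 0.520, 1.53 and 0.585 CPM in cultures F1, F2, M1 and M2, against 35.2 and 32.5 CPM in whole DG F1 and M2. The highest culture, F1, was still more than 10-fold below the lower tissue library. The log2 difference was -4.63 (SE 0.49, edgeR adjusted p = 4.99e-05), the largest fall of the family, 24.8-fold. It was -3.76 with length and GC trends removed and -5.26 without culture F1.

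Kdr encodes VEGF receptor 2, the principal signalling receptor for VEGF-A, and lies on chromosome 5 from 75932827 to 75978458. It was at 2.15, 2.25 and 0.954 CPM in cultures F1, F2 and M1 and had 0 counts in M2, for which a limit of 3 counts comes to 0.292 CPM, against 12.3 and 13.9 CPM in whole DG F1 and M2. All 4 cultures were below the tissue. Kdr thus fell by 3.26 on the log2 scale with an SE of 0.72 (edgeR adjusted p = 0.00337). Flt4 encodes VEGF receptor 3, known from lymphatic vessels and sprouting endothelium, and lies on chromosome 11 from 49609263 to 49652739. It had 5, 0, 5 and 3 counts in cultures F1, F2, M1 and M2, against 26 and 33 counts in whole DG F1 and M2. It was the scarcest member in both groups. Flt4 fell by 2.61 on the log2 scale with an SE of 0.69 (edgeR adjusted p = 0.00797). The call was lost without whole DG F1 (edgeR adjusted p = 0.0549), without whole DG M2 (0.0839) and with length and GC trends removed (-1.68, edgeR adjusted p = 0.0551).

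The neuropilins were the most abundant receptors by counts, and they fell by unequal amounts. Nrp1 encodes neuropilin 1, a co-receptor for VEGF-A and the receptor of semaphorin 3A, and lies on chromosome 8 from 128358604 to 128503363. It was at 43.1, 38.0, 49.5 and 34.1 CPM in cultures F1, F2, M1 and M2, against 125.8 and 101.6 CPM in whole DG F1 and M2. The groups lay apart by 2.05-fold, from the highest culture to the lower tissue library. The log2 difference was -1.47 (SE 0.17, edgeR adjusted p = 8.96e-05).

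Nrp2 encodes neuropilin 2, a co-receptor for VEGF-C and a receptor of semaphorin 3F, and lies on chromosome 1 from 62703285 to 62818695. It was at 12.3, 8.49, 10.5 and 7.21 CPM in cultures F1, F2, M1 and M2, against 164.1 and 145.5 CPM in whole DG F1 and M2. Each culture was more than 10-fold below each tissue library. Nrp2 fell by 4.00 on the log2 scale with an SE of 0.20 (edgeR adjusted p = 8.04e-07). With length and GC trends removed the difference was -3.24. The sources used here do not say whether strand was used in counting, and Nrp2 overlaps the antisense gene Gm29083, which had 1 count in the cultures together, against 11 and 16 counts in whole DG F1 and M2.

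**Figure D2:**
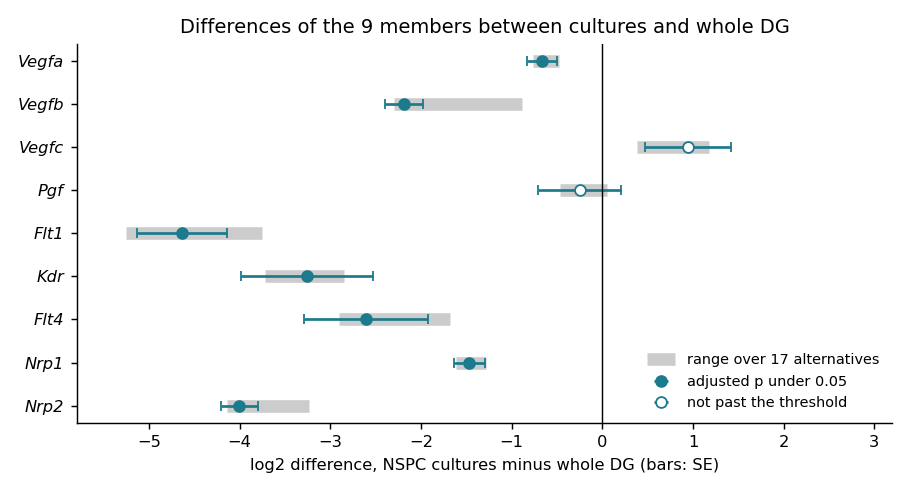
Log2 differences of the 9 members, NSPC cultures minus whole DG, with SE bars, filled points for an edgeR adjusted p under 0.05 and grey bands for the range over 17 alternative settings. Flt1 (-4.63) and Nrp2 (-4.00) lie farthest to the left, and the Vegfb band reaches to -0.89.

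Divided by exon length, so that genes can be ranked against each other, the family was led by different members in the 2 groups. Division by length does not remove GC trends. With length and GC trends removed, the log2 differences were -0.89 for Vegfb and -0.72 for Vegfa, which are close to each other. Whether the leader still changed after that removal was not tested. In cultures Vegfa was highest at 6.54 ± 1.02 CPM per kb (mean ± SD, n = 4), and its libraries lay above those of Vegfb at 4.38 ± 0.827 CPM per kb. Nrp1 (4.21 CPM per kb) and Vegfc (3.03 CPM per kb) came next, and the ranges of Vegfb and Nrp1 and of Nrp1 and Vegfc overlapped. Pgf (0.923 CPM per kb) and Nrp2 (0.813 CPM per kb) overlapped each other and lay below Vegfc. Kdr (0.148), Flt1 (0.0991) and Flt4 (0.0359 CPM per kb) closed the order with overlapping ranges. In whole DG Vegfb was highest at 19.9 ± 0.260 CPM per kb (n = 2), and Nrp2 (13.1 CPM per kb), Nrp1 (11.6 CPM per kb) and Vegfa (10.4 CPM per kb) followed it, and of these 3 each overlapped its neighbour. Flt1 (2.51), Vegfc (1.57), Kdr (1.45), Pgf (1.09) and Flt4 (0.223 CPM per kb) came after, of which Vegfc and Kdr overlapped. The 4 ligands together came to between 12.3 and 17.5 CPM per kb in cultures, against 32.5 and 33.4 CPM per kb in whole DG. The 3 kinases together came to between 0.0788 and 0.490 CPM per kb in cultures, against 4.18 and 4.19 CPM per kb in whole DG. Nrp1 was 5.18-fold above Nrp2 per length in cultures, while in whole DG Nrp2 was 1.12-fold above Nrp1.

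Most endothelial markers were lower in cultures, as were the kinases and the markers of several other cell types. Of 18 endothelial markers, 16 fell in cultures (88.9%) and 0 rose, with a median log2 difference of -4.81. Of all genes tested, 41.7% fell and 35.6% rose. The 18 endothelial markers summed to between 70.1 and 121.6 CPM in cultures, against 270.7 and 248.7 CPM in whole DG. The glucose transporter gene Slc2a1 (log2 difference -0.10, edgeR adjusted p = 0.736) and the lipid transporter gene Mfsd2a (0.74, edgeR adjusted p = 0.128) did not pass. Other cells also express these transporters, and both were left out after their values were seen. Without them, the other 16 summed to between 6.1 and 13.7 CPM in cultures, against 192.3 and 180.8 CPM in whole DG. The tight junction gene Cldn5, with Sox17 and Robo4, had 0 counts in every culture, and the vascular cadherin gene Cdh5 had 2 counts in the cultures together, against 265 in whole DG. Mural markers also moved that way, with 7 of 10 tested lower and 1, the receptor gene Notch3, higher (27.6 CPM in cultures, 7.93 CPM in whole DG). All 6 fibroblast markers fell, and of 10 astrocyte markers 5 fell and 2 rose. Median log2 differences were -8.48 for microglial, -8.46 for neuronal, -5.71 for oligodendrocyte lineage, -5.17 for mural and -3.72 for fibroblast markers. They were -1.71 for astrocyte markers and 3.55 for neural stem and progenitor markers. The part of these cell types in the falls of the VEGF members was not tested.

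The signalling list downstream of the kinases held members that moved both ways. Of its 30 genes, 29 were tested, of which 19 fell (65.5%) and 9 rose (31%), with a median log2 difference of -1.57. Of all genes tested, 41.7% fell and 35.6% rose. Cdc42, a regulator of the cytoskeleton and the highest of the list by mean log2 CPM over the 6 libraries, rose to 732 ± 66.3 CPM in cultures, against 272 ± 11.7 CPM in whole DG (log2 difference 1.43, edgeR adjusted p = 2.88e-05). The adaptor gene Shc2 had the largest difference and fell to 0.333 CPM in cultures, against 63.9 CPM in whole DG (log2 difference -7.53, edgeR adjusted p = 8.56e-07). Chosen after their values were seen, the sister adaptor gene Shc1 rose by 4.14 (113.1 CPM in cultures, 6.39 CPM in whole DG), and Nos3, the endothelial nitric oxide synthase gene, fell by 4.33 (0.273 CPM in cultures, 5.64 CPM in whole DG). Plcg1, which encodes the phospholipase C gamma that binds the Kdr product and was also chosen after its values were seen, was lower, at 17.98 CPM in cultures and 89.2 CPM in whole DG (log2 difference -2.31, edgeR adjusted p = 1.15e-05).

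Of 20 co-receptor and regulator genes, 18 were tested, of which 8 rose (44.4%) and 7 fell (38.9%), with a median log2 difference of 0.53, against 35.6% and 41.7% of all genes tested. The heparan sulphate proteoglycan gene Gpc1, highest of the list by mean log2 CPM over the 6 libraries, was at 184.9 ± 61.4 CPM in cultures and 127.0 ± 5.07 CPM in whole DG and did not pass (edgeR adjusted p = 0.115). Cdh5, whose product binds the Kdr product at endothelial junctions, had the largest difference, a log2 difference of -7.25 (edgeR adjusted p = 8.1e-06). Chosen after its values were seen, Vash1, which encodes vasohibin 1, an inhibitor of angiogenesis, fell by 4.28 on the log2 scale (1.92 CPM in cultures, 37.4 CPM in whole DG). Its relative Vash2, known as a promoter of angiogenesis and also chosen after its values were seen, rose by 3.51 (18.7 CPM in cultures, 1.62 CPM in whole DG).

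VEGF-A is a classic target of the hypoxia-inducible factors (HIFs). Of 28 HIF and hypoxia response genes, 27 were tested, of which 12 fell (44.4%) and 7 rose (25.9%), with a median log2 difference of -0.20. Of all genes tested 41.7% fell and 35.6% rose. The glycolytic aldolase gene Aldoa, highest of the list by the same mean, fell by 1.03 on the log2 scale (956 CPM in cultures, 1955 CPM in whole DG, edgeR adjusted p = 0.000121). Adm, which encodes the vasodilator peptide adrenomedullin, had the largest difference: 113.8 ± 38.4 CPM in cultures, against 0.474 ± 0.241 CPM in whole DG (log2 difference 7.89, edgeR adjusted p = 2.55e-06). Also chosen after their values were seen, Hif1a itself rose by 1.70 (306.9 CPM in cultures, 94.3 CPM in whole DG), while Epas1, the gene of its relative HIF-2 alpha, fell by 1.78 (31.3 CPM in cultures, 107.3 CPM in whole DG). Without whole DG M2, 4 in place of 7 genes of the list were called higher.

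Of 13 genes of neuropilin ligands and plexins, 11 were tested, of which 9 fell (81.8%) and 1 rose (9.09%), with a median log2 difference of -2.08. Of all genes tested, 41.7% fell and 35.6% rose. With length and GC trends removed, 6 genes of the list fell and the median of the list was -0.56. Plxna2, a plexin that signals with neuropilins and the highest of the list by mean log2 CPM over the 6 libraries, was at 75.3 ± 19.1 CPM in cultures and 146.3 ± 1.45 CPM in whole DG (log2 difference -0.96, edgeR adjusted p = 0.00346). The adhesion gene L1cam, whose product associates with neuropilin 1, had the largest difference, with 3 counts in the cultures together, against 2531 counts in whole DG (log2 difference -10.00, edgeR adjusted p = 2.23e-07). The single gene that rose was Sema3a, which encodes a ligand of neuropilin 1 and was named after its values were seen: it was at 123.3 CPM in cultures and 1.74 CPM in whole DG (log2 difference 6.15, edgeR adjusted p = 4.61e-06). The gene lists were chosen with results of these data known, so their counts describe them and do not test them.

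**Figure D3:**
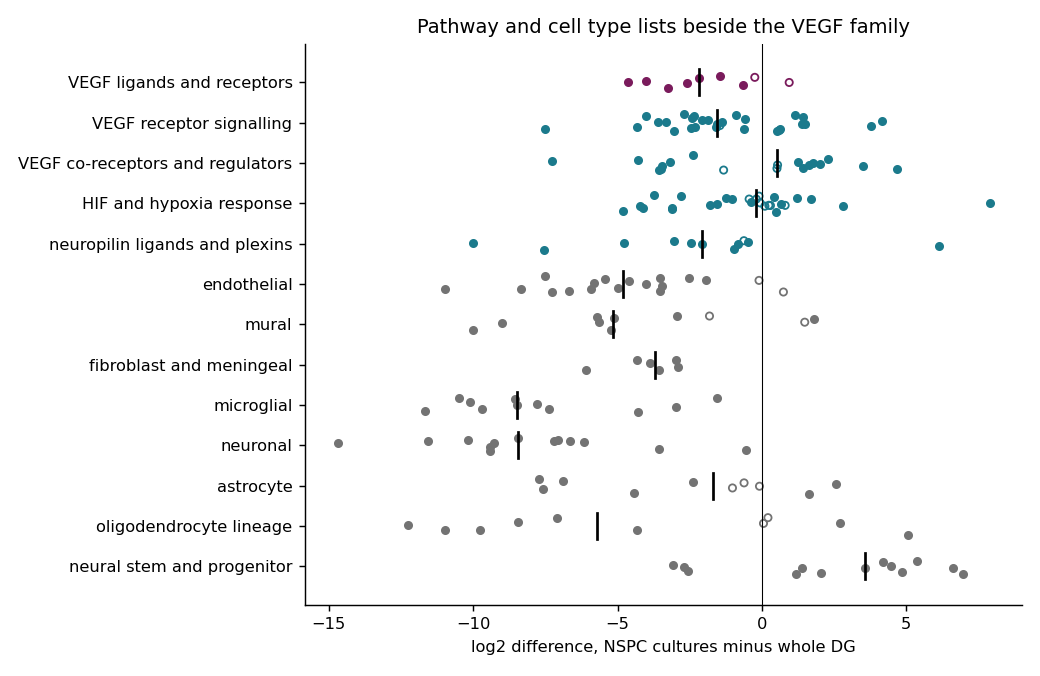
Log2 differences, NSPC cultures minus whole DG, of the tested members of the VEGF family (purple), 4 pathway lists (blue) and 8 cell type marker lists (grey), with filled points for an edgeR adjusted p under 0.05 and black bars for medians. The median of the co-receptor list is above 0 (0.53), those of the VEGF family (-2.19) and of the endothelial markers (-4.81) are below it.

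Male and female cultures were compared for the same genes. Of 15140 genes tested in the 4 cultures, 0.0264% passed (edgeR adjusted p of 0.05), and 0 of the 8 members tested did, Flt4 having too few counts. DESeq2 called 53 genes (0.387%) and 0 of the 6 members to which it gave an adjusted p. Unadjusted p-values of the 8 members were 0.0915 or higher. Kdr had the lowest, with 0.954 and 0 CPM in male cultures, against 2.15 and 2.25 CPM in female cultures. The log2 difference of -2.16 had an SE of 1.08 (edgeR adjusted p = 0.813). Without male M1 the difference was -7.64, resting on the 0 counts of M2, and without M2 it was -1.18. Vegfb was at 7.44 and 8.67 CPM in male cultures, against 6.36 and 5.63 CPM in female cultures (log2 difference 0.43, SE 0.31, edgeR adjusted p = 0.859). Vegfa was at 34.3 and 27.2 CPM in male cultures, against 24.6 and 25.9 CPM in female cultures (log2 difference 0.29, SE 0.21, edgeR adjusted p = 0.86). Whether the difference from whole DG depended on sex was tested as an interaction with 1 mouse per sex in whole DG: 0 of 18088 genes passed (edgeR, 0%), 328 at an unadjusted p under 0.05, and none of those 328 was a member.

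Single cells of the pooled cultures gave the same genes cell by cell, in 14912 cells of 2001 to 8531 UMIs (unique molecular identifiers, counted per transcript molecule) with a median of 4048.5. Each cell barcode occurred once. Vegfb was the most often detected member, with a UMI in 22.6% of cells (95% exact binomial interval 21.9 to 23.3%) and a level of 62.6 UMIs per 1000000 UMIs of all genes (UPM). Nrp1 followed with 6.34% of cells, Vegfc with 4.89%, Vegfa with 4.14%, Nrp2 with 2.80% and Pgf with 1.37%. The kinases were at the edge of detection: Flt1 had 31 UMIs in 31 cells and Kdr had 21 UMIs in 20 cells, of 62412600 UMIs in all. The intervals cover counting error only, and no cell type that lacks these genes was at hand to measure free RNA. The 8 endothelial markers in the table other than the transporters had between 8 UMIs (Esam) and 183 UMIs (Egfl7) each. The transporter genes, left out as in the bulk comparison, had 1312 UMIs (Slc2a1) and 462 UMIs (Mfsd2a).

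A UMI of at least 1 ligand was found in 30.5% of cells, of Nrp1 or Nrp2 in 8.96% and of Flt1 or Kdr in 0.342%, while 63.3% of cells had a UMI of none of the 8 members. Of the 51 cells with a Flt1 or Kdr UMI, 2 (3.92%, exact binomial interval 0.479 to 13.5%) also had a UMI of any of 8 endothelial markers other than the transporters, against 2.99% of the other 14861 cells, with median depths of 4002 and 4049 UMIs. The interval of the 51 cells holds the share of the other cells, but it is too wide to tell whether the shares differ. Of the 8 markers, Egfl7 (183 UMIs) and Eng (155 UMIs) had the most UMIs. Cdh5, Cldn5, Tie1, Erg, Sox17, Robo4, Abcb1a and Ly6a were not among the single-cell genes. Of cells with a Vegfa UMI 22.2% also had a Vegfb UMI, close to the 22.6% of all cells. Of cells with an Nrp2 UMI 31.1% had a Vegfb UMI, and Nrp2 was highest in cluster 4, whose cells had the highest median depth, 5270.5 UMIs; the part of depth in this share was not tested.

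The authors' 6 clusters, numbered 0 to 5, held 3925, 3297, 3260, 1910, 1428 and 1092 cells. For orientation, cluster 0 was led by Apoe and Mxd4, cluster 1 by Ccnb2 and Cenpa, cluster 2 by histone genes, cluster 3 by the replication gene Mcm3, cluster 4 by the mitotic genes Ube2c and Prc1, and cluster 5 by the cystine transporter gene Slc7a11 and the stress response gene Atf5. With 1 library there is no test between clusters, and the intervals below are exact Poisson intervals for counting error only. Vegfa was at 12.2, 7.25, 10.0, 9.90, 7.27 and 19.2 UPM in clusters 0 to 5. Its interval in cluster 5, 15.4 to 23.7, lay above those of the other 5 clusters, of which the highest ended at 14.1. Cells with a Vegfa UMI made up 7.78% of cluster 5 and 2.49 to 4.54% of the other clusters. Thinned to 2001 UMIs per cell, the shares were 3.82% in cluster 5 and 1.39 to 2.44% in the other clusters.

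Nrp1 was also highest in cluster 5, at 22.5 UPM (18.4 to 27.3), against 13.5 to 17.03 UPM in the other clusters. Its interval overlapped those of clusters 0 and 2. Nrp2 went the other way and was highest in cluster 4, at 10.8 UPM (8.54 to 13.4), and lowest in cluster 5, at 4.16 (2.50 to 6.49). The interval of cluster 4 overlapped that of cluster 2, and the interval of cluster 5 overlapped those of clusters 0, 1 and 3. Vegfb varied least in proportion, from 48.1 UPM in cluster 5 (42.0 to 54.9) to 69.0 in cluster 2 (64.9 to 73.2). Vegfc was lowest in cluster 1, at 9.21 UPM (7.56 to 11.1), and at 11.6 to 13.9 elsewhere. Pgf lay between 2.41 and 3.77 UPM, with overlapping intervals in all 6 clusters. Flt1 and Kdr had 0 UMIs in cluster 5, where a limit of 3 counts comes to 0.656 UPM and to 0.275% of its 1092 cells with a UMI, and the exact intervals end at 0.807 UPM and 0.337%. These limit detected UMIs and not the cells that express the genes. The levels were 0.323 to 0.673 UPM of Flt1 and 0.129 to 0.595 UPM of Kdr in the other clusters, and a difference was not detectable at this depth.

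**Figure D4:**
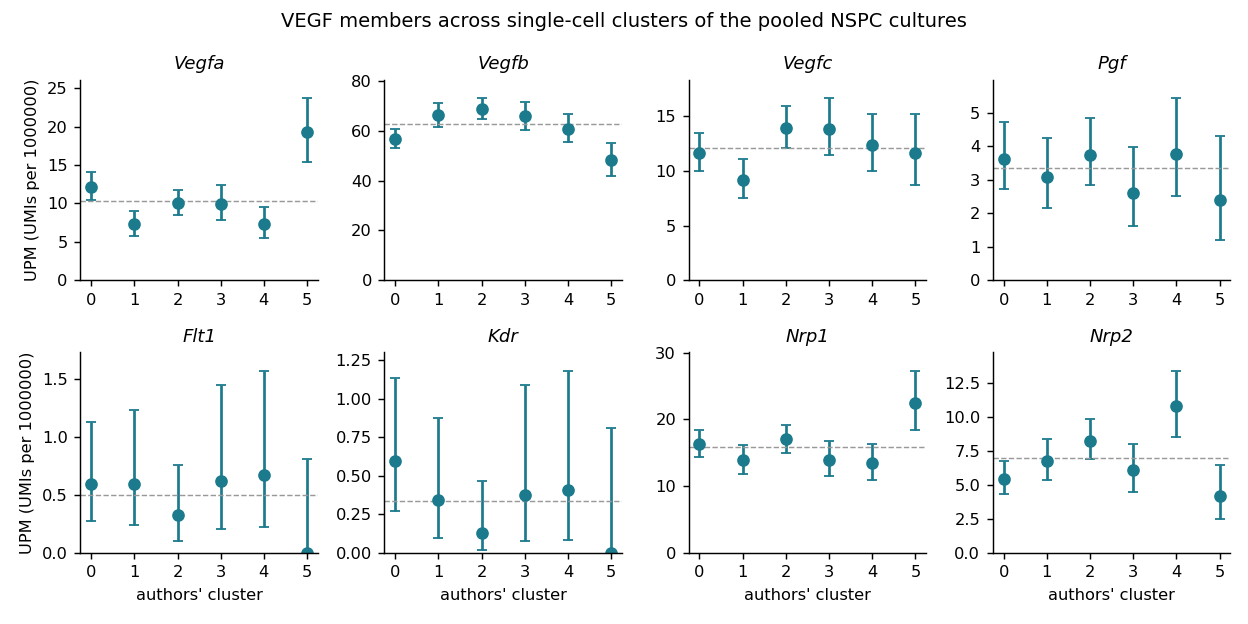
UPM of 8 members in the authors' clusters 0 to 5 of the single-cell library, with 95% exact Poisson intervals for counting error and a dashed line at the level over all cells. Vegfa (19.2) and Nrp1 (22.5) are highest in cluster 5, Nrp2 (10.8) in cluster 4.

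Sums over many genes vary less than single genes by construction, and are given for orientation. The 28 HIF and hypoxia genes summed to between 2320 and 2674 UPM, with 2456 in cluster 5. Adm was highest in cluster 5, at 62.4 UPM (55.3 to 70.0), against 34.5 to 51.1 in the other clusters. The 29 signalling genes in the table summed to between 1552 and 1662 UPM, the lowest in cluster 5. Sema3a lay between 20.1 and 30.0 UPM, the highest in cluster 5.

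Profiles over the 6 clusters were compared with those of 6025 named genes of at least 1000 UMIs. These correlations share 1 library and its cluster depths, are over 6 points each, and are given as descriptions. Taking the highest of 6025 genes over 6 points favours a high r by itself, also for Pgf, whose intervals overlapped in all 6 clusters. Nearest to Vegfa were Pdlim5 (Pearson's r 0.981), Ostf1 (0.980) and Ccdc90b (0.979), and Pdlim5 stood at 140.7 UPM in cluster 5 and 100.5 to 123.4 in the other clusters. Nearest to Vegfb were Sf3a2 (0.995), Nmt2 and Snrpd2 (0.989 each). Nearest to Vegfc were Nr3c1 (0.989), Acaca (0.986) and Cic (0.983), and nearest to Pgf were Timm44 (0.973), Otud7b (0.969) and Napg (0.964). Nearest to Nrp1 were Syf2, Tmem250-ps (0.991 each) and Zcchc9 (0.971). Nearest to Nrp2 were Cnot1 (0.997), Bora (0.996) and Sap30 (0.995), of which Bora stood at 64.2 UPM in cluster 4 and at 2.84 in cluster 5.

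The 2 assays of NSPC cultures ranked the ligands differently. Vegfb was 6.05-fold above Vegfa in UPM, while in bulk cultures Vegfa was 1.49-fold above Vegfb in CPM per kb. In bulk whole DG, Vegfb was 1.93-fold above Vegfa in CPM per kb. GC trends were not removed from these bulk levels, and their part in the order was not tested. Nrp1 was above Nrp2 in both, 2.26-fold in UPM and 5.18-fold in CPM per kb. Flt1 and Kdr were the lowest of the 8 members in both assays. UMIs were counted from transcript ends and bulk reads over whole transcripts, so levels of different genes do not share a scale between the assays.

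**Figure D5:**
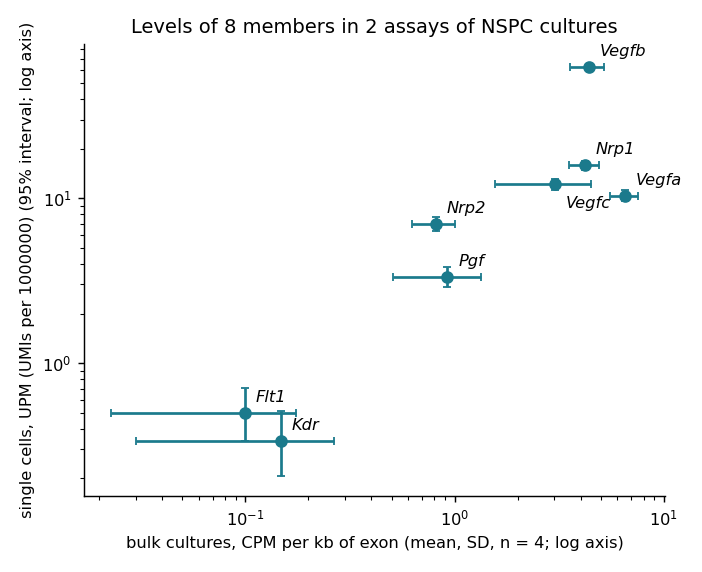
Level of 8 members in bulk NSPC cultures (CPM per kb of exon, mean with SD, n = 4) and in pooled single cells (UPM with 95% exact Poisson interval), both on log axes. Flt1 and Kdr lie lowest on both axes, and Vegfb is highest in single cells (62.6 UPM).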

How the data were processed

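The authors deposited whole-number read counts per gene, 1 column per bulk library. Alignment and counting tools in the submitters' processing notes are HISAT2 2.0.6, featureCounts and Subread, beside CASAVA 1.8.2 and the human build GRCh38, although the symbols are mouse. The sources used here give neither strand use nor the treatment of shared reads. Positions, exon lengths and overlaps come from GENCODE M21 (GRCm38), matched by symbol. For single cells the authors deposited values on a natural log scale, of 1 plus UMIs per 10000, from which whole UMIs were recovered for 100% of entries within 0.01. Cell Ranger 3.1.0 and Seurat 3.1.0 are named in the submitters' processing notes, and the labels' protocol names other versions.

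The test was edgeR's robust quasi-likelihood F test (version 4.0.16, R 4.3.3) after TMM scaling and the default low-count filter, with Benjamini-Hochberg adjustment over all genes tested and a threshold of 0.05. Group or, in the 4 cultures, sex was the only term, or their interaction was tested. CPM use TMM library sizes. DESeq2 1.42.0, other scalings and filters, left-out libraries, sex as a covariate, a replicate block, thinned whole DG counts, length and GC trends (mgcv 1.9.3) and a fold above 2 were alternatives. Scripts were tested on simulated data. The cultures are separate per the labels' protocols, so the p-values rest on spread between cultures and, in whole DG, between 2 mice. The spread of each gene was moderated towards a trend over all genes. Fits that left out a whole DG library held 1 whole DG library and so no spread between mice. No cell filter or doublet caller was applied to the authors' cells. The naming rule took, beside the 9 members, the gene with the highest mean log2 CPM over the 6 libraries and the called gene with the largest difference of each list and, for members with at least 100 UMIs, the 3 genes with the nearest cluster profile. Genes it takes from marker lists are given only where they bear on a member, and a pathway gene that the rule did not take is marked as picked with its values known. Members, lists and this rule were chosen with earlier results of these data known.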

Additional observations from a re-analysis of the deposited data

How the results depend on the processing

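Over 17 alternatives of the comparison of cultures with whole DG, Vegfb, Flt1, Kdr, Nrp1 and Nrp2 were called lower in every one. Vegfa was called in 15 of them and Flt4 in 14, the lost calls being those given with their values above. Vegfc passed in 2: without culture F2 (1.18) and, with no block, in the 4 libraries with the names F1 and M2 (1.06, edgeR adjusted p = 0.0427). Pgf was called in none and turned its sign without whole DG M2 (0.015, edgeR adjusted p = 0.985) and with length and GC trends removed (0.051, edgeR adjusted p = 0.925); the cause was not tested. Leaving out 1 library at a time gave log2 differences of -0.77 to -0.60 for Vegfa, 0.73 to 1.18 for Vegfc, -0.47 to 0.015 for Pgf, -5.26 to -4.35 for Flt1, -3.60 to -2.85 for Kdr and -2.91 to -2.19 for Flt4, and 4 to 8 higher HIF genes. With a test for a fold above 2, the genes higher in cultures numbered 3671 in place of 6440, the higher signalling genes 4 in place of 9 and the higher HIF genes 3 in place of 7, since that test asks for a larger difference. Libraries of the 2 groups that share the name F1 or M2 had deviations from their group means that correlated at 0.042 and 0.054. The 2 whole DG libraries deviate from their mean in equal and opposite ways, so these values cannot decide whether the names are a pairing. With the name as a block in those 4 libraries, 13677 genes and 7 members were called. Between the sexes and in the interaction, 0 members were called under each alternative, while between 3 genes (without M2) and 273 genes (without a filter on low counts) were called between the sexes, and the interaction without a filter on low counts called 6 genes. All 168 single-cell values under 3 alternatives (thinning, a mitochondrial share of at most 20%, and leaving out the 5% of cells with the most UMIs, among them possible doublets) stayed within the counting intervals. Thinning kept every cell, and the other alternatives left out 64 and 744 of the 14912 cells. They reuse most of the same UMIs, so there was little room to leave the intervals. Depth limits Flt1, Kdr and Flt4, which had 61, 62 and 13 counts in the 4 cultures together.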
